A study of Mus musculus with 39 samples.

Results

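The crush response described here is that of *Lepr*-cKO sciatic nerves at 2 weeks post crush (2 wpc), measured by bulk RNA-seq of the endoneurium, the tissue inside the perineurial sheath. Libraries were chosen by the genotype, time and side in their sample labels, which gave 5 injured (ipsilateral) and 6 healthy (contralateral) nerves, 11 of the 39 libraries of the series. Mice M125, M126, M128, M135 and M138 each gave an injured and a healthy nerve, and mouse M136 gave a healthy nerve alone, where M stands for mouse before the animal number that ends each library's label. *Lepr*-cKO mice were *Lepr*fl/fl::*Dhh*-Cre on a C57BL/6 background, and *Lepr*-ctrl mice carried *Lepr*fl/fl without Cre. The study used mice of both sexes aged 2 to 4 months and crushed the nerve on 1 side at the mid-thigh, and it asked what the leptin receptor in Schwann cells contributes to nerve regeneration. For comparison, 10 *Lepr*-ctrl libraries at 2 wpc and 9 *Lepr*-cKO libraries at 4 wpc were used. *Dhh*-Cre is active in the Schwann cell lineage from embryonic development, so the allele was already recombined in Schwann cells before the injury. The recombined allele lacks exon 1 and still gives a truncated receptor without its signal peptide.

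After a crush, the axon beyond the lesion degenerates, and Schwann cells leave their myelinating state, break down myelin and take up a repair state in which they secrete trophic factors and attract macrophages. Axons then regrow along the Schwann cell tubes, and Schwann cells differentiate and wrap them in new myelin. Endoneurial tissue holds all of these cells together with fibroblasts, vessels and residual axons, so a bulk level is their sum. In such samples, fewer cells of a type and less RNA per cell cannot be told apart.

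Total counts were 32379296 to 41606288 in healthy nerves (median 37334516) and 26089596 to 32778487 in injured nerves (median 27919223). Values below are CPM, counts relative to the library's total scaled by TMM. Injured values are always listed for mice M125, M126, M128, M135 and M138 in that order, and healthy values as the lowest, highest and median of 6. A gene was called, and is said to have risen or fallen, where its log2 fold change was beyond 1 in either direction with an adjusted p below 0.05 in edgeR's quasi-likelihood test. Injured library M126 stood apart. Genes of the skeletal muscle list took 7.14% of its counts, against 0.00598% to 0.00950% in the other injured and 0.00778% to 0.0124% in the healthy libraries, and adipocyte genes took 0.525% against at most 0.0629% elsewhere. Mitochondrially encoded genes took 2.12% to 2.68% of counts in healthy nerves and 12.9%, 5.56%, 19.1%, 29.7% and 15.3% in injured nerves. Results are therefore given for all libraries, and the value without library M126 is given beside each named gene whose call, and each list whose count, it changed.

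The Schwann cell identity of the tissue was visible in both groups. *Mbp*, which compacts the cytoplasmic faces of myelin, ranged from 17590 to 24007 CPM (median 22044) in healthy nerves and was 6821, 4565, 3551, 2481 and 5135 CPM in injured nerves. *Sox10*, the transcription factor that defines the Schwann cell lineage, ranged from 461 to 1001 CPM (median 784) in healthy nerves and was 462, 325, 309, 328 and 361 CPM in injured nerves. Both genes were therefore abundant on either side, with *Mbp* lower in every injured nerve than in any healthy nerve and *Sox10* overlapping between the groups. *Sox10* passed the test (log2 fold change -1.06 ± 0.23 (SE), adjusted p = 1.2e-04), but the call was lost without injured library M128 (log2 fold change -0.99), without healthy library M125 (log2 fold change -0.95) or with the animal as a replicate block and mouse M126 left out (log2 fold change -0.94).

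*Lepr* itself, the leptin receptor gene, at chr4:101717404-101815352 on the plus strand of GRCm38, ranged from 5.79 to 14.7 CPM (median 9.97) in healthy nerves and was 31.0, 58.4, 76.1, 121 and 62.1 CPM in injured nerves. All 5 injured nerves lay above all 6 healthy nerves, with the lowest injured value in mouse M125 and the highest in mouse M135. The rise was about 6.81-fold (log2 fold change 2.77 ± 0.29 (SE), adjusted p = 4.4e-10), and it was as large without library M126 (log2 fold change 2.85). Counts over the whole gene include reads from the truncated transcript and from endoneurial cells in which *Dhh*-Cre is not active, so these levels do not measure loss of the receptor. In *Lepr*-ctrl nerves at 2 wpc, *Lepr* was 7.38 to 10.6 CPM in 5 healthy and 31.7 to 68.2 CPM in 5 injured nerves (log2 fold change 2.504).

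Across the 18442 genes tested, 3857 rose (20.9%) and 2473 fell (13.4%), and the median log2 fold change over all of them was 0.10. Leaving out library M126 gave 3736 higher genes (20.3% of 18394) and 2626 lower genes (14.3%). Of the called genes, 3507 were higher and 2308 lower in both, whereas 31 genes were called higher with library M126 and lower without it. Among the 6330 called genes, 4643 had no overlap between the 5 injured and 6 healthy libraries, beside 7635 of all tested genes (41.4%). Changes were often large. A log2 fold change above 3 was reached by 886 of the higher genes and below -3 by 307 of the lower genes. The gene lists described below are compared with these background shares and with the median of all genes in the plot of list medians.

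**Figure D1:**
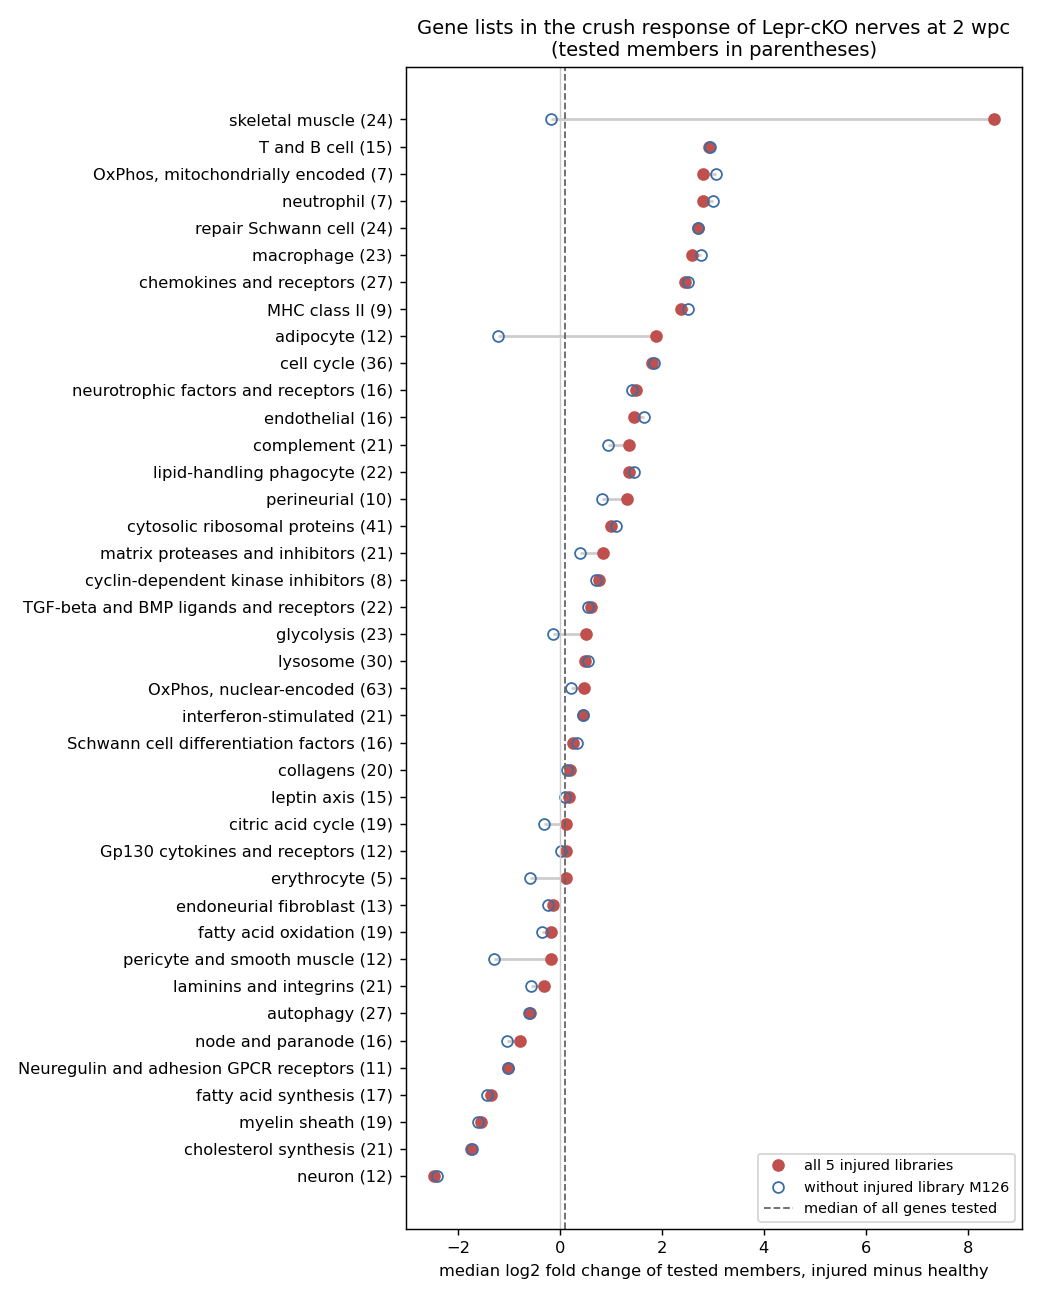
Median log2 fold change (injured minus healthy, x axis) of the tested members of each of 40 gene lists (y axis, with the number tested), for all 5 injured libraries (filled) and without injured library M126 (open), with the median of all genes tested as a dashed line. The neuron list lies lowest at -2.48, the repair Schwann cell list lies at 2.71, and the skeletal muscle list moves from 8.52 to -0.17 when library M126 is left out.

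Myelin genes were reduced as a group. Of the myelin sheath list, 0 of 19 tested members rose and 14 fell, with a median log2 fold change of -1.54 (-1.61 without library M126). *Pmp22*, a myelin membrane protein whose dosage causes inherited neuropathy in humans, ranged from 23039 to 25943 CPM (median 24535) in healthy nerves and was 9649.7, 6045, 6198, 3277 and 7004 CPM in injured nerves. Here, as for *Mbp*, no injured nerve reached the lowest healthy nerve, and mouse M125 kept the highest and mouse M135 the lowest injured level. Both *Mbp* (log2 fold change -2.24 ± 0.26 (SE), adjusted p = 3.4e-09) and *Pmp22* (log2 fold change -1.93 ± 0.28 (SE), adjusted p = 2.8e-07) fell. *Cldn14*, a tight junction claudin, had the largest fall of the list. It ranged from 15.8 to 25.3 CPM (median 21.5) in healthy nerves and was 1.21, 0.848, 1.73, 0.518 and 1.06 CPM in injured nerves, a wide separation (log2 fold change -4.28 ± 0.25 (SE), adjusted p = 5.7e-16). The 5 members that were not called included *Mag*, the periaxonal adhesion molecule, whose healthy range of 403 to 603 CPM (median 554) overlapped the injured values of 476, 306, 363, 217 and 313 CPM (log2 fold change -0.65 ± 0.22 (SE), adjusted p = 0.011). *Tspan2*, a tetraspanin, lay on the other side, with 12.8 to 16.9 CPM (median 15.4) in healthy and 20.4, 29.8, 19.1, 42.5 and 30.4 CPM in injured nerves. Its groups did not overlap, but its log2 fold change of 0.90 stayed under the threshold, which it passed without injured library M125 (1.03) or M128 (1.04). *Gal3st1* (-0.84) and *Mobp* (0.59) were not called either. These 2, like every list member named beside a count of 5 or fewer that the naming rule does not cover, were named after their values were seen.

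**Figure D2:**
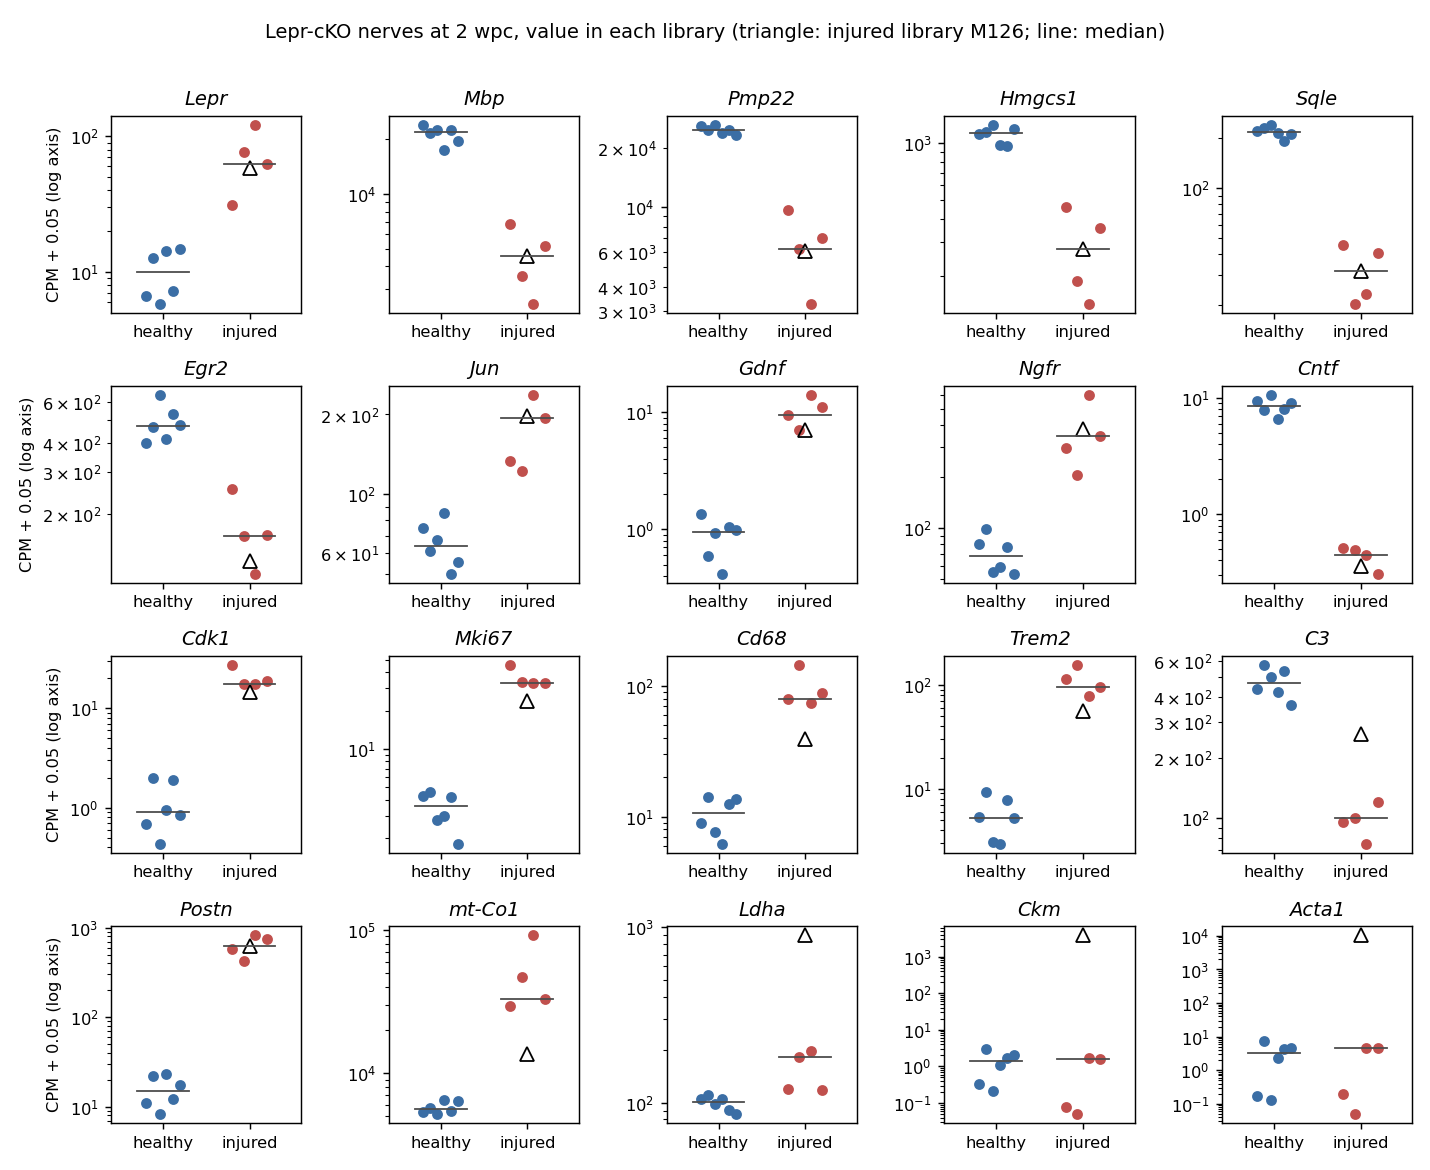
Level of 20 named genes in each library, as CPM + 0.05 on a log axis, in healthy (blue) and injured (red) *Lepr*-cKO nerves at 2 wpc, with injured library M126 as an open triangle and a line at each median. *Mbp*, *Pmp22*, *Hmgcs1*, *Sqle*, *Cntf* and *C3* lie lower in every injured nerve, *Cdk1*, *Trem2*, *Gdnf* and *Postn* lie higher in every injured nerve, and for *Ckm* and *Acta1* only the triangle leaves the healthy range upward.

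Enzymes that build myelin lipids were reduced alongside. In the cholesterol synthesis list, 0 of 21 tested members rose and 16 fell, with a median log2 fold change of -1.74, and without library M126 17 fell. *Hmgcs1*, an early enzyme of the pathway, ranged from 962 to 1247 CPM (median 1132) in healthy nerves and was 462, 277, 187, 142 and 355 CPM in injured nerves. *Sqle*, the squalene epoxidase, ranged from 191 to 239 CPM (median 217) in healthy nerves and was 45.4, 31.9, 20.2, 23.0 and 41.0 CPM in injured nerves. The groups did not overlap for either enzyme, and the injured nerves of mice M125 and M138 kept the highest levels of each (log2 fold changes -1.96 ± 0.27 and -2.75 ± 0.23 (SE), adjusted p = 1.2e-07 and 1.4e-12, in that order). *Ebp*, a sterol isomerase, had the smallest change, with 24.8 to 31.6 CPM (median 28.7) in healthy and 26.9, 29.4, 22.1, 22.2 and 24.2 CPM in injured nerves (log2 fold change -0.20 ± 0.12 (SE), adjusted p = 0.17), and *Mvk*, *Acat2*, *Ggps1* and *Dhcr7* were not called either, although *Dhcr7* was called without library M126 (-1.002, against -0.99 with it).

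In the fatty acid synthesis list, 3 of 17 tested members rose and 10 fell (median -1.34, and without library M126 2 rose and 10 fell with a median of -1.42). *Fasn*, the fatty acid synthase, ranged from 338 to 533 CPM (median 441) in healthy nerves and was 159, 222, 139, 198 and 134.7 CPM in injured nerves. *Scd2*, a desaturase abundant in myelinating glia, ranged from 4875 to 6444 CPM (median 5697) in healthy nerves and was 2394, 2296, 1733, 1944 and 1962 CPM in injured nerves. *Me1*, the malic enzyme that supplies NADPH for lipid synthesis, ranged from 134 to 172 CPM (median 157) in healthy nerves and was 26.9, 52.0, 21.5, 24.1 and 25.3 CPM in injured nerves. All 3 genes were lower in each injured nerve than in any healthy nerve, and the log2 fold changes were -1.34, -1.46 and -2.38 (adjusted p = 4.9e-07, 8.1e-07 and 1.4e-13). The 3 members that rose were *Hacd1*, a dehydratase of very long-chain fatty acid elongation (log2 fold change 2.45 ± 0.24 (SE), adjusted p = 7.0e-11), *Elovl5* (1.48) and *Scd1* (1.02), of which *Scd1* was not called without library M126 (0.96).

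The proximal promoters of the lipid genes are shown for *Hmgcs1* because its list fell together. Promoter windows of 250 bases before to 50 bases after the start, from RefSeq on GRCm38.p6, were matched for 16 of the 21 cholesterol synthesis genes (19 promoters). The letters CCAAT, searched on both strands, were in 78.9% of them and in 37.4% of all 32851 promoters. TCACNCCAC, a form of the sterol regulatory element, was in only 1 of the 19 (5.26%) and in 1.24% of all. The 100 bases before the *Hmgcs1* start, at chr13:119690251-119690350 on the plus strand, hold 1 CCAAT match on the opposite strand, in capitals, and no match of TCACNCCAC. Such matches describe the sequence only.
*Hmgcs1*: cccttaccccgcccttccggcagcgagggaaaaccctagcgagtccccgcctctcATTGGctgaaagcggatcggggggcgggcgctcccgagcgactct

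Transcription factors of Schwann cell differentiation moved little as a list. Of these, 2 of 16 tested members rose (12.5%, against 20.9% of all genes tested) and 3 fell (18.75%, against 13.4%), with a median of 0.25. *Egr2*, the zinc finger factor that drives myelin gene expression, ranged from 398 to 639 CPM (median 471) in healthy nerves and was 255, 125.5, 160.1, 111 and 162 CPM in injured nerves. Every injured value was below every healthy value (log2 fold change -1.58 ± 0.23 (SE), adjusted p = 3.7e-07). *Pou3f1*, a factor of the promyelinating stage, ranged from 36.4 to 63.7 CPM (median 44.8) in healthy nerves and was 162, 111, 80.3, 62.2 and 151 CPM in injured nerves. It rose (log2 fold change 1.28 ± 0.33 (SE), adjusted p = 9.5e-04), although mouse M135 overlapped the healthy range. *Nab1*, a corepressor partner of EGR proteins, was the other member to fall beside *Egr2* and *Sox10* (-1.09). *Olig2* was called, but had 0 counts in all healthy nerves and at most 5 counts in an injured nerve, so no fold is given.

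The repair program was strongly raised. In the repair Schwann cell list, 19 of 24 tested members rose and 2 fell, with a median of 2.71 with and 2.71 without library M126. *Jun*, whose product is the central factor of the repair state, ranged from 50.2 to 85.3 CPM (median 64.1) in healthy nerves and was 133, 197, 122, 236 and 194 CPM in injured nerves. *Ngfr*, the p75 neurotrophin receptor of immature and repair Schwann cells, ranged from 53.6 to 97.8 CPM (median 68.2) in healthy nerves and was 296, 381, 205, 601 and 344 CPM in injured nerves. *Gdnf*, a trophic factor for motor axons, ranged from 0.367 to 1.29 CPM (median 0.901) in healthy nerves and was 9.42, 7.01, 7.01, 14.0 and 10.98 CPM in injured nerves. Each injured nerve exceeded every healthy nerve in all 3 genes, and mouse M135 was the highest. *Gdnf* rose most (log2 fold change 3.52 ± 0.38 (SE), adjusted p = 7.7e-10), followed by *Ngfr* (log2 fold change 2.37 ± 0.34 (SE), adjusted p = 2.9e-07) and *Jun* (log2 fold change 1.42 ± 0.20 (SE), adjusted p = 2.2e-07). *Artn*, the GDNF-family ligand artemin, ranged from 0.0902 to 0.310 CPM (median 0.183) in healthy nerves and was 4.32, 3.56, 4.11, 4.19 and 4.53 CPM in injured nerves. *Fgf5*, a fibroblast growth factor, ranged from 0.0273 to 0.331 CPM (median 0.165) in healthy nerves and was 14.5, 15.5, 15.02, 35.2 and 21.8 CPM in injured nerves. These 2 ligands were close to 0 CPM in healthy nerves and higher in every injured nerve (log2 fold changes 4.47 ± 0.36 and 6.74 ± 0.59 (SE), adjusted p = 7.8e-13 and 6.3e-12, in that order). *Shh*, a further ligand associated with repair cells, had 8.33 to 20.4 CPM (median 12.2) in healthy and 15.9, 7.46, 16.6, 31.3 and 11.9 CPM in injured nerves and was not called (log2 fold change 0.29 ± 0.30 (SE), adjusted p = 0.41). The 2 members that fell were *Nrg1*, which encodes the growth factor neuregulin 1 (log2 fold change -1.52 ± 0.36 (SE), adjusted p = 4.3e-04), and *Lif*, a gp130 cytokine (log2 fold change -1.13 ± 0.18 (SE), adjusted p = 1.7e-06), whose call was lost with the animal as a replicate block and mouse M126 left out (log2 fold change -0.98).

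Receptors and partners of myelination signals showed mostly lower values. In the Neuregulin and adhesion GPCR list, 0 of 11 tested members rose and 7 fell (median -1.02, and without library M126 0 rose and 6 fell with a median of -1.01). The count of 7 was 4 when mitochondrially encoded genes were left out of the normalization, without injured library M128 or without healthy library M135. *Dag1*, dystroglycan, which links Schwann cells to laminin, ranged from 1444 to 1892 CPM (median 1679) in healthy nerves and was 407, 595, 324, 481 and 329.5 CPM in injured nerves. It fell in every nerve pair (log2 fold change -1.99 ± 0.28 (SE), adjusted p = 1.8e-07). *Erbb3*, the neuregulin receptor of Schwann cells, had 372 to 450.2 CPM (median 423) in healthy and 461, 318, 297, 376 and 445 CPM in injured nerves. These ranges overlapped and the gene was not called (log2 fold change -0.13 ± 0.15 (SE), adjusted p = 0.45). *Erbb2*, its signalling partner, was higher in all injured nerves without reaching the fold threshold (log2 fold change 0.57 ± 0.12 (SE), adjusted p = 1.4e-04), and *Adgrg6*, the adhesion GPCR needed for myelination, was lower in all of them, likewise below it (log2 fold change -0.82 ± 0.14 (SE), adjusted p = 5.9e-06).

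Among neurotrophic factors and receptors, 10 of 16 tested members rose and 3 fell (median 1.498, and without library M126 9 rose and 3 fell with a median of 1.42). *Cntf*, a gp130 cytokine made by mature myelinating Schwann cells, ranged from 6.57 to 10.6 CPM (median 8.58) in healthy nerves and was 0.461, 0.311, 0.441, 0.399 and 0.257 CPM in injured nerves. All injured nerves were far below all healthy nerves, about 22.8-fold lower (log2 fold change -4.51 ± 0.32 (SE), adjusted p = 5.4e-14). The other members that fell were *Gfra1* (-1.40), the GDNF co-receptor, and *Fgf2* (-1.06).

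Genes of the node of Ranvier and paranode gave a mixed list in which 1 of 16 tested members rose and 8 fell (median -0.79, and without library M126 1 rose and 9 fell with a median of -1.03). *Nfasc*, the neurofascin of paranodal loops and nodes, ranged from 762 to 923 CPM (median 865) in healthy nerves and was 152, 101, 139.8, 66.6 and 125.8 CPM in injured nerves. *Cntn1*, its axonal partner contactin 1, ranged from 10.6 to 20.98 CPM (median 14.98) in healthy nerves and was 0.951, 0.311, 0.992, 0.638 and 0.899 CPM in injured nerves. Neither gene overlapped between the groups, and *Cntn1* fell further (log2 fold change -4.34 ± 0.36 (SE), adjusted p = 1.6e-12) than *Nfasc* (log2 fold change -2.86 ± 0.17 (SE), adjusted p = 1.1e-15). *Kcnj10*, an inward rectifier potassium channel of glia, was the single member called higher. It ranged from 8.88 to 13.9 CPM (median 8.98) in healthy nerves and was 89.0, 57.7, 45.5, 59.2 and 42.1 CPM in injured nerves, with the injured range well above the healthy range (log2 fold change 2.56 ± 0.40 (SE), adjusted p = 1.3e-06).

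In the leptin axis list, which includes *Lepr* itself, the share called higher was near that of all genes tested. Of it, 3 of 15 tested members rose (20%, against 20.9%) and 1 fell (6.67%, against 13.4%), with a median of 0.18, near that of all genes. Besides *Lepr*, the higher members were *Ptpn2*, a tyrosine phosphatase (1.13), and *Socs3*, the feedback inhibitor induced by STAT3. *Socs3* ranged from 23.5 to 41.1 CPM (median 31.6) in healthy nerves and was 34.3, 68.6, 45.1, 96.7 and 76.5 CPM in injured nerves. Mouse M125 lay within the healthy range, whereas the other injured nerves lay above it (log2 fold change 1.05 ± 0.20 (SE), adjusted p = 2.1e-05). The call was lost without injured library M135 (log2 fold change 0.85) and with the animal as a replicate block (log2 fold change 0.90, adjusted p = 3.8e-04, and log2 fold change 0.78 with mouse M126 left out of that fit). *Leprot*, which lies beside *Lepr* and whose product limits its surface presentation, had 61.8 to 69.5 CPM (median 65.1) in healthy and 62.3, 79.4, 66.3, 80.7 and 58.3 CPM in injured nerves (log2 fold change 0.09 ± 0.17 (SE), adjusted p = 0.66). *Rnf41*, a ubiquitin ligase of receptor trafficking, had 61.0 to 76.6 CPM (median 71.2) and 44.8, 44.6, 40.3, 43.6 and 40.7 CPM. Its injured values were all below the healthy values, with a change under the fold threshold (log2 fold change -0.69 ± 0.08 (SE), adjusted p = 9.7e-10). *Irs2*, an insulin receptor substrate, was the member that fell (log2 fold change -1.12 ± 0.15 (SE), adjusted p = 6.8e-08), a call lost without injured library M128 (log2 fold change -0.997).

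For gp130 cytokines and their receptors, 3 of 12 tested members rose and 4 fell (median 0.13, and without library M126 3 rose and 3 fell with a median of 0.03). The members that rose included *Il6* and *Osm* (3.69), and those that fell were *Cntf*, *Lif*, *Il11* (-2.62) and *Il6ra* (-1.02), the last not called without library M126 (-0.92). *Il6*, the inflammatory cytokine that gives the family its name, ranged from 0.0253 to 0.197 CPM (median 0.168) in healthy nerves and was 0.288, 0.848, 0.294, 6.94 and 0.642 CPM in injured nerves. Its rise (log2 fold change 3.73 ± 0.77 (SE), adjusted p = 8.3e-05) was uneven, with mouse M135 far above the other 4.

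Cell division genes were higher in injured nerves. In the cell cycle list, 27 of 36 tested members rose and 0 fell, against 20.9% of all genes called higher, with a median of 1.81 (1.83 without library M126). *Mki67*, the proliferation marker Ki-67, ranged from 1.75 to 4.52 CPM (median 3.56) in healthy nerves and was 45.5, 23.6, 33.5, 33.1 and 32.8 CPM in injured nerves. *Top2a*, the DNA topoisomerase of dividing cells, ranged from 1.97 to 4.59 CPM (median 2.91) in healthy nerves and was 48.8, 29.5, 37.4, 33.5 and 34.3 CPM in injured nerves. *Cdk1*, the kinase that starts mitosis, ranged from 0.382 to 1.96 CPM (median 0.851) in healthy nerves and was 27.0, 14.6, 17.6, 17.6 and 18.9 CPM in injured nerves. In all 3 genes the groups were far apart, with the highest injured level in mouse M125 and the lowest in mouse M126. *Cdk1* rose about 17.7-fold (log2 fold change 4.15 ± 0.35 (SE), adjusted p = 2.1e-12), *Top2a* about 12.0-fold (log2 fold change 3.58 ± 0.32 (SE), adjusted p = 7.9e-12) and *Mki67* about 9.95-fold (log2 fold change 3.32 ± 0.36 (SE), adjusted p = 1.1e-09). *Ccnb1*, cyclin B1, ranged from 0.0516 to 0.417 CPM (median 0.224) in healthy nerves and was 5.24, 2.77, 3.56, 3.03 and 4.59 CPM in injured nerves. It rose with the same mice at the ends (log2 fold change 4.14 ± 0.49 (SE), adjusted p = 6.2e-09). *Mcm4*, a subunit of the replicative helicase, had the lowest fold change of the list and was not called (log2 fold change -0.28 ± 0.13 (SE), adjusted p = 0.061).

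Cyclin-dependent kinase inhibitors went both ways, and 3 of 8 tested members rose and 2 fell. *Cdkn1a*, which encodes the p53 target p21, ranged from 503 to 664 CPM (median 592) in healthy nerves and was 176.1, 147.2, 129, 76.0 and 134 CPM in injured nerves. Every injured nerve was below every healthy nerve (log2 fold change -2.16 ± 0.20 (SE), adjusted p = 3.8e-11), and *Cdkn1b*, encoding p27, fell too (-1.22). *Cdkn2a*, which encodes p16 and p19ARF, ranged from 2.32 to 4.69 CPM (median 3.58) in healthy nerves and was 14.98, 9.04, 22.8, 18.1 and 11.6 CPM in injured nerves. It rose without overlap (log2 fold change 2.08 ± 0.27 (SE), adjusted p = 4.7e-08), as did *Cdkn3*, a phosphatase that acts on CDKs (log2 fold change 2.15 ± 0.30 (SE), adjusted p = 1.7e-07), and *Cdkn2b* (1.49).

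Promoters of the division genes are shown because most of the list rose together. Windows were matched for 29 of the 36 genes (31 promoters). TTTGAA, the core of the cell cycle homology region, was found on either strand in 48.4% of them and in 17.9% of all promoters, and CCAAT in 80.6% and 37.4%. The 100 bases before the start are printed for *Cdk1* (chr10:69352913-69353012), *Top2a* (chr11:99024190-99024289) and *Ccnb1* (chr13:100786487-100786586), each read along the minus strand of GRCm38.p6, with matches to either motif or its reverse complement in capitals. *Cdk1* and *Top2a* hold both motifs and *Ccnb1* holds CCAAT alone in this stretch. The same stretch of *Mki67*, not printed, holds TTTGAA and no CCAAT.
*Cdk1*: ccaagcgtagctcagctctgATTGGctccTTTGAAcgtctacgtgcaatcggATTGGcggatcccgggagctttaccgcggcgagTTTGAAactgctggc
*Top2a*: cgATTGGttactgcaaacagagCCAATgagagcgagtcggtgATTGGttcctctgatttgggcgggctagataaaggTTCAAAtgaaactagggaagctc
*Ccnb1*: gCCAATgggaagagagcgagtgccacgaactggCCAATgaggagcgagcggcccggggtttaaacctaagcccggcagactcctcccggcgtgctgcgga

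Macrophage genes were raised in all injured nerves. In the macrophage list, 17 of 23 tested members rose and 2 fell (median 2.58, and 2.77 without library M126). *Cd68*, a lysosomal glycoprotein of phagocytes, ranged from 6.15 to 14.1 CPM (median 10.7) in healthy nerves and was 79.8, 39.3, 143.9, 74.1 and 88.7 CPM in injured nerves. *Adgre1*, which encodes F4/80, ranged from 4.91 to 16.7 CPM (median 7.37) in healthy nerves and was 35.1, 21.2, 62.5, 42.5 and 52.6 CPM in injured nerves. *Mpeg1*, which encodes perforin-2, ranged from 10.4 to 28.3 CPM (median 16.5) in healthy nerves and was 328, 115, 353, 225 and 285 CPM in injured nerves. Mouse M128 had the highest and mouse M126 the lowest injured level of each, and no injured nerve fell into the healthy range. *Mpeg1* rose most (log2 fold change 3.92 ± 0.32 (SE), adjusted p = 1.1e-12), then *Cd68* (log2 fold change 3.02 ± 0.29 (SE), adjusted p = 6.8e-11) and *Adgre1* (log2 fold change 2.34 ± 0.29 (SE), adjusted p = 1.2e-08). *Csf1r*, the receptor for the macrophage growth factor CSF1, had 27.7 to 61.1 CPM (median 38.6) in healthy and 69.8, 32.2, 67.3, 36.0 and 51.0 CPM in injured nerves, and these ranges overlapped (log2 fold change 0.40 ± 0.25 (SE), adjusted p = 0.15). The 2 members that fell were *Cd163*, a haemoglobin scavenger receptor, and *Lyve1* (-1.29), and which macrophages made these transcripts was not tested. *Cd163* ranged from 14.3 to 76.3 CPM (median 29.0) in healthy nerves and was 3.11, 4.35, 9.95, 5.34 and 9.12 CPM in injured nerves, with no overlap (log2 fold change -2.38 ± 0.41 (SE), adjusted p = 6.5e-06).

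Genes of lipid-handling phagocytes gave a list in which 12 of 22 tested members rose and 4 fell (median 1.36). *Trem2*, a lipid-sensing receptor of macrophages, ranged from 2.88 to 9.23 CPM (median 5.21) in healthy nerves and was 116, 56.6, 157, 79.5 and 95.5 CPM in injured nerves. *Gpnmb*, a glycoprotein of lipid-laden macrophages, ranged from 53.5 to 89.8 CPM (median 70.7) in healthy nerves and was 516, 265, 1006, 563 and 544 CPM in injured nerves. *Itgax*, which encodes CD11c, ranged from 0.254 to 1.70 CPM (median 0.588) in healthy nerves and was 26.3, 22.8, 101, 22.8 and 30.1 CPM in injured nerves. All 3 peaked in mouse M128 and were above the healthy range in every mouse (log2 fold changes 4.19 ± 0.32, 3.04 ± 0.29 and 5.79 ± 0.58 (SE), adjusted p = 3.0e-13, 3.3e-11 and 1.7e-10, in that order). *Spp1*, osteopontin, went the other way although it belongs to the same list. It ranged from 1196 to 1578 CPM (median 1455) in healthy nerves and was 334, 339, 396, 179.8 and 359 CPM in injured nerves, and each injured nerve lay below all healthy nerves (log2 fold change -2.14 ± 0.17 (SE), adjusted p = 1.3e-12). The other members that fell were *Mertk* (-1.69), *Npc1* (-1.48) and *Cd9* (-1.27).

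Calls in the lysosome list were near the shares of all genes tested. Of its members, 8 of 30 tested rose (26.7%, against 20.9% of all genes) and 3 fell (10%, against 13.4%). The median was 0.49, and without library M126 10 rose. *Ctsb*, a cysteine cathepsin, ranged from 507 to 668 CPM (median 533) in healthy nerves and was 1327, 1159, 1782, 1221 and 1312 CPM in injured nerves. *Ctsd*, an aspartic cathepsin, ranged from 208 to 358 CPM (median 279.8) in healthy nerves and was 839, 737, 1208, 627 and 941 CPM in injured nerves. Both cathepsins were higher in every injured nerve, most in mouse M128 (log2 fold changes 1.31 ± 0.16 and 1.64 ± 0.17 (SE), adjusted p = 1.1e-08 and 1.8e-10, in that order). *Lamp1*, a structural protein of the lysosomal membrane, ranged from 881 to 1090.0 CPM (median 1008) in healthy nerves and was 467, 640.2, 485, 461 and 424 CPM in injured nerves. It was lower in every injured nerve (log2 fold change -1.01 ± 0.16 (SE), adjusted p = 1.2e-06), but close to the fold threshold, and the call was lost with DESeq2 (log2 fold change -0.99), with its size factors (-0.99), with mitochondrially encoded genes left out of the normalization (-0.96), with other filters on low counts (-0.996 and -0.98) and without any 1 of injured libraries M125, M128, M135 and M138 or healthy libraries M126, M128, M135 and M136 (from -0.998 to -0.94). *Gaa*, the acid glucosidase that degrades glycogen, fell more (log2 fold change -1.46 ± 0.22 (SE), adjusted p = 6.8e-07), with mouse M126 reaching the healthy range. *Ppt1*, a thioesterase, was the last member to fall (-1.20).

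*Lamp1* and *Ctsd* are shown because they moved in opposite directions and share a motif. GTCACGTG, the core of the CLEAR element of lysosomal genes, was found on either strand in 20.7% of 29 promoters matched for 23 of the 30 lysosome genes and in 2.25% of all promoters. The 100 bases before the start lie at chr8:13159061-13159160 on the plus strand for *Lamp1* and at chr7:142387828-142387927 on the minus strand for *Ctsd* (GRCm38.p6, RefSeq), with the match in capitals.
*Lamp1*: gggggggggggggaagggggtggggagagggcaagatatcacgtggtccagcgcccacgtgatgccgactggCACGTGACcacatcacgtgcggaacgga
*Ctsd*: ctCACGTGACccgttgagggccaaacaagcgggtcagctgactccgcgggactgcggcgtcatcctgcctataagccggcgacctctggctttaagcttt

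In the autophagy list, 0 of 27 tested members rose (against 20.9% of all genes tested) and 3 fell (11.1%, against 13.4%). The median was -0.60, and without library M126 0 rose and 4 fell with a median of -0.61. *Gabarapl1*, an ATG8-family protein, ranged from 313 to 392 CPM (median 374) in healthy nerves and was 83.9, 119, 104, 89.3 and 88.4 CPM in injured nerves. It fell in all mice (log2 fold change -1.90 ± 0.12 (SE), adjusted p = 1.2e-15), and *Optn* (-1.28) and *Atg9a* (-1.05) were the other members to fall. *Map1lc3b*, which encodes LC3B, was also lower in each injured nerve, under the fold threshold (log2 fold change -0.84 ± 0.09 (SE), adjusted p = 6.7e-10). *Sqstm1*, the cargo receptor p62, had 333 to 430.3 CPM (median 402) in healthy and 185, 355, 211, 235 and 225 CPM in injured nerves, mouse M126 being the one within the healthy range (log2 fold change -0.71 ± 0.14 (SE), adjusted p = 4.1e-05). *Atg7* overlapped fully (log2 fold change 0.05 ± 0.10 (SE), adjusted p = 0.71), and *Atg5* was higher in each injured nerve by less than the threshold (log2 fold change 0.58 ± 0.09 (SE), adjusted p = 2.4e-06).

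In the complement list, 10 of 21 tested members rose and 3 fell (median 1.36, and without library M126 9 rose and 3 fell with a median of 0.95). *C1qa*, a chain of the C1q recognition molecule, ranged from 21.8 to 48.0 CPM (median 32.2) in healthy nerves and was 154, 134, 297, 137 and 194 CPM in injured nerves. *C3*, the central component, ranged from 365 to 573 CPM (median 469) in healthy nerves and was 96.3, 261, 101, 74.8 and 120.01 CPM in injured nerves. The 2 genes moved apart in every mouse, with *C1qa* higher (log2 fold change 2.46 ± 0.25 (SE), adjusted p = 1.5e-10) and *C3* lower (log2 fold change -1.86 ± 0.31 (SE), adjusted p = 2.8e-06). *Cd55*, which encodes the decay-accelerating factor, fell as well (log2 fold change -2.08 ± 0.24 (SE), adjusted p = 5.2e-09), as did *C4b* (-1.31).

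Antigen presentation genes rose unevenly among mice. Of the MHC class II list, 7 of 9 tested members rose and 2 fell (median 2.37). *H2-Aa*, an MHC class II alpha chain, ranged from 41.1 to 99.1 CPM (median 58.9) in healthy nerves and was 140.2, 193, 884, 177.9 and 164 CPM in injured nerves. *Cd74*, the invariant chain, ranged from 85.9 to 203 CPM (median 132) in healthy nerves and was 198, 321, 1640.5, 291 and 202 CPM in injured nerves. Mouse M128 was several times above the other injured nerves in both genes. *H2-Aa* rose without overlap (log2 fold change 2.37 ± 0.39 (SE), adjusted p = 2.9e-06). *Cd74* overlapped the healthy range in mouse M125 and mouse M138 (log2 fold change 2.03 ± 0.44 (SE), adjusted p = 1.3e-04), and its call was lost without injured library M128 (log2 fold change 0.99). *H2-DMa*, a peptide-loading chaperone of the same pathway, fell (log2 fold change -1.84 ± 0.22 (SE), adjusted p = 8.9e-09), as did *H2-DMb1* (-1.80).

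Of the chemokines and their receptors, 20 of 27 tested members rose and 0 fell (median 2.45, and without library M126 21 rose and 0 fell with a median of 2.51). *Ccl2*, which recruits monocytes, ranged from 2.47 to 5.39 CPM (median 3.83) in healthy nerves and was 51.0, 29.2, 11.2, 18.5 and 21.9 CPM in injured nerves. *Ccl8*, a related chemokine, ranged from 0.0506 to 0.451 CPM (median 0.183) in healthy nerves and was 10.3, 4.92, 15.1, 6.42 and 8.38 CPM in injured nerves. No injured nerve reached down into the healthy range, with *Ccl2* highest in mouse M125 and *Ccl8* in mouse M128 (log2 fold changes 2.76 ± 0.36 and 5.38 ± 0.52 (SE), adjusted p = 5.0e-08 and 6.7e-11, in that order). *Cxcl12* was not called (log2 fold change -0.16 ± 0.28 (SE), adjusted p = 0.63), and mouse M135 alone exceeded its healthy range of 235 to 354 CPM (median 268), with 594 CPM. Interferon-stimulated genes changed less, and 4 of 21 tested members rose (19.0%, against 20.9% of all genes tested) and 2 fell (9.52%, against 13.4%). The median was 0.46, and without library M126 5 rose and 1 fell with a median of 0.45. The higher members were *Oas1a* (log2 fold change 2.01 ± 0.29 (SE), adjusted p = 2.5e-07), *Mx1* (1.86), *Ifi44* (1.25) and *Oas2* (1.17), while 2 members were called higher without injured library M125 or with the animal as a replicate block. *Rsad2*, an antiviral enzyme, fell (log2 fold change -1.77 ± 0.36 (SE), adjusted p = 5.4e-05), as did *Ifit2* (-1.03), the latter not without library M126 (-0.95). *Isg15*, the ubiquitin-like modifier induced by interferon, overlapped between the groups, with mouse M125 at 33.5 CPM and the other injured nerves at 11.021 to 13.4 CPM (log2 fold change 0.32 ± 0.43 (SE), adjusted p = 0.52).

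Lymphocyte and neutrophil genes were called higher at very low levels. In the T and B cell list, 12 of 15 tested members rose and 0 fell (median 2.92). *Cd4* ranged from 0.197 to 0.391 CPM (median 0.322) in healthy nerves and was 2.91, 2.83, 11.6, 6.94 and 11.8 CPM in injured nerves, with no overlap (log2 fold change 4.51 ± 0.40 (SE), adjusted p = 1.0e-11). It is also expressed by some macrophages. *Cd3e*, part of the T cell receptor complex, had at most 3 counts in any healthy nerve and 0.144, 2.20, 0.992, 0.120 and 0.257 CPM in injured nerves. *Cd79a*, a B cell receptor chain, overlapped between the groups and was not called (log2 fold change 0.04 ± 0.43 (SE), adjusted p = 0.94). In the neutrophil list, 5 of 7 tested members rose and 0 fell, and 6 of its 13 members had too few counts to be tested. *Retnlg*, a granulocyte product, ranged from 0 to 0.160 CPM (median 0.0255) in healthy nerves and was 2.10, 1.47, 5.29, 1.79 and 55.5 CPM in injured nerves, mouse M138 being far above the others. *S100a8*, a calprotectin subunit, rose (log2 fold change 1.68 ± 0.37 (SE), adjusted p = 1.8e-04) with mouse M126 inside the healthy range, and *S100a9*, *Csf3r* and *Mmp8* were the other members called higher.

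Matrix genes were called in both directions. Among collagens, 5 of 20 tested members rose (25%, against 20.9% of all genes tested) and 5 fell (25%, against 13.4%), with a median of 0.20. *Col1a1* and *Col3a1*, the fibrillar collagens, overlapped between the groups and were not called (log2 fold changes 0.45 ± 0.25 and 0.74 ± 0.29 (SE), adjusted p = 0.11 and 0.024, in that order). *Col4a1*, a basement membrane collagen, ranged from 1128 to 1476 CPM (median 1393) in healthy nerves and was 339, 584, 302, 478 and 292 CPM in injured nerves. *Col16a1*, a fibril-associated collagen, ranged from 131.5 to 219 CPM (median 196) in healthy nerves and was 844, 537, 1108, 881 and 815 CPM in injured nerves. Each pair of ranges was separate, in opposite directions (log2 fold changes -1.76 ± 0.26 and 2.14 ± 0.17 (SE), adjusted p = 3.9e-07 and 4.6e-13, in that order). The other members that fell were *Col12a1* (-1.97), *Col14a1* (-1.67), *Col4a2* (-1.45) and *Col11a1* (-1.05), and the others that rose were *Col5a2* (1.12), *Col28a1* (1.20), *Col18a1* (1.22) and *Col8a1* (1.59).

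Proteases and their inhibitors gave a list in which 9 of 21 tested members rose and 5 fell, with a median of 0.84 that was 0.39 without library M126. *Timp1*, an inhibitor of metalloproteinases, ranged from 1.20 to 5.002 CPM (median 2.78) in healthy nerves and was 52.3, 44.5, 53.2, 49.0 and 50.3 CPM in injured nerves. *Timp3*, a matrix-bound relative, ranged from 1057 to 1215 CPM (median 1142) in healthy nerves and was 83.0, 207, 84.5, 205 and 87.4 CPM in injured nerves. The inhibitors moved in opposite directions in every mouse (log2 fold changes 4.18 ± 0.27 and -3.09 ± 0.35 (SE), adjusted p = 5.8e-15 and 2.3e-09, in that order). *Mmp12*, the macrophage elastase, ranged from 0 to 0.385 CPM (median 0.154) in healthy nerves and was 11.9, 13.6, 46.3, 10.4 and 21.5 CPM in injured nerves, far above the healthy range (log2 fold change 6.98 ± 0.82 (SE), adjusted p = 5.0e-09). The members that fell beside *Timp3* were *Adamts5* (-1.61), *Mmp15* (-1.24), *Mmp28* (-1.22) and *Timp2* (-1.14). Among laminins and integrins, 3 of 21 tested members rose and 6 fell (median -0.31, and without library M126 4 rose and 6 fell with a median of -0.56). *Lama2*, the alpha chain of the Schwann cell laminin, fell (log2 fold change -1.34 ± 0.29 (SE), adjusted p = 1.7e-04), and so did *Itgb4*, an integrin subunit of mature Schwann and perineurial cells (log2 fold change -1.21 ± 0.20 (SE), adjusted p = 2.3e-06), and *Itgb5* (log2 fold change -2.53 ± 0.15 (SE), adjusted p = 5.1e-16). *Itgb1*, the common beta chain, was not called (log2 fold change -0.26 ± 0.21 (SE), adjusted p = 0.27), whereas *Itga5*, of the fibronectin receptor, rose (log2 fold change 1.80 ± 0.25 (SE), adjusted p = 9.2e-08) together with *Itgb3* (1.25) and *Itgb8* (1.07).

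Of TGF-beta and BMP genes, 9 of 22 tested members rose and 3 fell (median 0.62, and without library M126 9 rose and 4 fell with a median of 0.56). *Tgfb1*, the ligand that acts on Schwann cells and fibroblasts alike, ranged from 10.6 to 15.2 CPM (median 12.5) in healthy nerves and was 24.7, 32.4, 46.5, 50.6 and 16.1 CPM in injured nerves. All injured values were above the healthy range, least in mouse M138 (log2 fold change 1.43 ± 0.24 (SE), adjusted p = 3.4e-06), and its receptor *Tgfbr1* was higher by less than the fold threshold (log2 fold change 0.44 ± 0.11 (SE), adjusted p = 7.3e-04). *Gdf15*, a stress-induced ligand, ranged from 0.137 to 0.532 CPM (median 0.281) in healthy nerves and was 3.02, 1.98, 3.56, 2.43 and 3.18 CPM in injured nerves, without overlap (log2 fold change 3.14 ± 0.38 (SE), adjusted p = 9.0e-09). *Bmp7*, a bone morphogenetic protein, ranged from 153 to 222 CPM (median 198) in healthy nerves and was 16.0, 17.5, 16.5, 6.98 and 15.3 CPM in injured nerves. It fell about 13.5-fold (log2 fold change -3.75 ± 0.22 (SE), adjusted p = 7.0e-16), with *Bmp6* (-1.46) and *Tgfbr2* (-1.37) the other members to fall.

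Respiratory chain genes differed by the genome that encodes them. All 7 tested mitochondrially encoded subunits rose, with a median of 2.81 (3.06 without library M126). *mt-Nd1*, of complex I, ranged from 2601 to 3376 CPM (median 2793) in healthy nerves and was 18006, 8253, 28888, 48990 and 23491 CPM in injured nerves. *mt-Co1*, of complex IV, ranged from 5203 to 6557 CPM (median 5593) in healthy nerves and was 29393, 13562, 46930, 91341 and 33149 CPM in injured nerves. *mt-Cytb*, of complex III, ranged from 5022 to 5804 CPM (median 5216) in healthy nerves and was 26196, 12070, 41582, 72089 and 29516 CPM in injured nerves. In each of them the injured nerves were all above the healthy nerves, mouse M126 lowest and mouse M135 highest, the same order as their share of all counts (log2 fold changes 3.13 ± 0.40, 2.89 ± 0.39 and 2.77 ± 0.38 (SE), adjusted p = 2.3e-08, 7.2e-08 and 9.1e-08, in that order). The other 6 mitochondrial members had at most 2 counts in any library, which leaves the mapping of mitochondrial reads uncertain. Of 63 nuclear-encoded subunits, 7 rose (11.1%, against 20.9% of all genes tested) and 0 fell (against 13.4%). At an adjusted p under 0.05 alone and with library M126 included, 42 were higher and 2 lower, beside 6624 and 5390 of all 18442 genes. The median was 0.47, and it was 0.22 without library M126, when 7 rose and 1 fell. Leaving out injured library M128, M135 or M138 gave 13, 14 and 11 higher members. *Ndufs1*, of complex I, had 56.97 to 67.9 CPM (median 61.7) in healthy and 68.8, 166, 61.1, 58.8 and 61.8 CPM in injured nerves. *Uqcrc1*, of complex III, had 30.2 to 38.4 CPM (median 36.3) and 27.9, 112, 30.7, 34.2 and 22.3 CPM. *Atp5b*, of the ATP synthase, had 554 to 647 CPM (median 630.5) and 303, 1291, 324, 448 and 266 CPM. None of the 3 was called (adjusted p = 0.021, 0.19 and 0.43), and in each of them mouse M126 was the highest of all 11 libraries, while the other 4 injured nerves were at most just above the healthy range and, for *Atp5b*, below it. The mean log2 CPM of the whole nuclear-encoded list was 5.45 to 5.53 in healthy nerves. It was 5.58 to 5.75 in those other 4 injured nerves, all above the healthy range, and 6.82 in mouse M126.

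For glycolysis and the citric acid cycle, the sign of the list median depended on library M126. In the glycolysis list, 7 of 23 tested members rose and 3 fell (median 0.51), and without library M126 *Pfkp* rose (1.27) and 7 members fell (median -0.13). With the animal as a replicate block 4 rose and 4 fell, and DESeq2 gave no adjusted p for 7 of the 23. *Hk1*, the hexokinase of most tissues, ranged from 130.8 to 175.2 CPM (median 166) in healthy nerves and was 39.4, 64.1, 52.6, 87.0 and 37.1 CPM in injured nerves. It fell in every mouse (log2 fold change -1.52 ± 0.16 (SE), adjusted p = 8.8e-10). *Ldha*, lactate dehydrogenase A, ranged from 85.9 to 110.2 CPM (median 101) in healthy nerves and was 119.97, 901, 181, 196 and 118 CPM in injured nerves. All injured nerves were above the healthy range, mouse M126 by far the most, and the change was called with library M126 (log2 fold change 1.62 ± 0.29 (SE), adjusted p = 1.3e-05) and not without it (log2 fold change 0.65 ± 0.13, adjusted p = 4.2e-05). *Hk2*, an inducible hexokinase abundant in muscle, ranged from 4.63 to 12.2 CPM (median 7.64) in healthy nerves and was 15.1, 102, 15.7, 8.17 and 12.4 CPM in injured nerves, and was likewise called only with library M126 (log2 fold change 1.99 ± 0.39 (SE), adjusted p = 3.9e-05, and log2 fold change 0.75 ± 0.23, adjusted p = 0.0059 without it). *Aldoc*, an aldolase of neural tissue, fell (log2 fold change -2.97 ± 0.29 (SE), adjusted p = 6.0e-11), as did *Ldhb* (-1.88). No member of the citric acid cycle or fatty acid oxidation lists (19 tested in each) was called with all libraries. Their medians of 0.13 and -0.17 were -0.31 and -0.36 without library M126, when 1 member of each list fell, *Acaa2* (-1.18) in fatty acid oxidation. *Cs*, citrate synthase, was 143.8, 362, 134, 159 and 119 CPM in injured and 132 to 154 CPM (median 148) in healthy nerves, with only mouse M126 far outside that range. With library M126 included, an adjusted p under 0.05 alone gave 4 higher and 2 lower citric acid cycle genes. It gave 5 higher and 6 lower fatty acid oxidation genes. Of all 18442 genes tested, 6624 were higher and 5390 lower by that rule. In every paired mouse but M126, the mean log2 CPM of both lists was lower in the injured nerve (differences -0.40 to -0.23 and -0.36 to -0.18). Cytosolic ribosomal protein genes gave 21 higher and 0 lower of 41 (median 1.005, and without library M126 25 rose and 0 fell with a median of 1.11). Their many processed pseudogenes make single members uncertain, and *Rps6*, for example, had only 0.773 to 1.32 CPM (median 1.12) in healthy nerves (log2 fold change 1.17 ± 0.25 (SE), adjusted p = 1.1e-04).

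**Figure D3:**
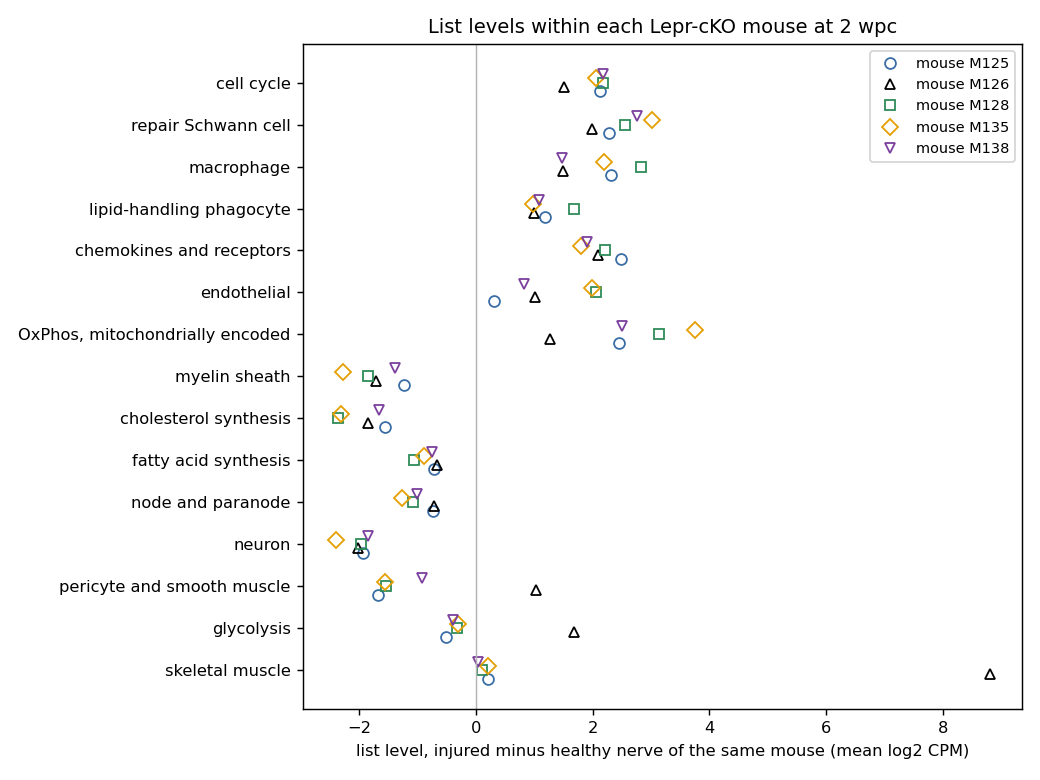
List level (mean log2 CPM over members) in the injured nerve minus that in the healthy nerve of the same mouse, for 15 lists (y axis) and 5 mice (symbols). Myelin, cholesterol and neuron lists lie below 0 and cell cycle, repair and macrophage lists above 0 in all 5 mice, whereas mouse M126 (black triangles) stands apart in the glycolysis and skeletal muscle lists.

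Other cell types of the nerve were followed by their own lists. Endothelial genes rose, and 12 of 16 tested members rose and 0 fell (median 1.46, and without library M126 13 rose and 0 fell with a median of 1.64). *Pecam1*, which encodes CD31, ranged from 55.3 to 146 CPM (median 84.2) in healthy nerves and was 127, 267, 428, 608 and 179.9 CPM in injured nerves. *Cdh5*, VE-cadherin, ranged from 40.1 to 83.5 CPM (median 51.1) in healthy nerves and was 65.4, 160.4, 143, 298 and 84.3 CPM in injured nerves. *Plvap*, a protein of fenestrated and leaky endothelium, ranged from 0.874 to 27.2 CPM (median 3.94) in healthy nerves and was 26.7, 175.5, 128.2, 194 and 68.1 CPM in injured nerves. The 3 genes peaked in mouse M135 and were lowest in mouse M125, where each of them overlapped the healthy range (log2 fold changes 1.80 ± 0.30, 1.39 ± 0.26 and 3.72 ± 0.60 (SE), adjusted p = 2.8e-06, 2.3e-05 and 1.9e-06, in that order), and the call of *Cdh5* was lost without injured library M135 (log2 fold change 0.98). The level of the whole list varied among injured nerves, from a mean log2 CPM of 6.07 to 8.31, against 5.32 to 6.33 in healthy nerves. *Slc2a1*, the glucose transporter of barrier endothelium and perineurium, was not called (log2 fold change 0.10 ± 0.19 (SE), adjusted p = 0.65).

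Among mural cell genes, 2 of 12 tested members rose and 4 fell (median -0.17), and without library M126 0 rose and 7 fell (median -1.29), while the replicate block gave 1 higher and 6 lower. *Rgs5*, a pericyte marker, ranged from 112 to 237 CPM (median 205) in healthy nerves and was 65.2, 221, 60.9, 75.5 and 57.7 CPM in injured nerves. Only mouse M126 lay inside the healthy range, so that the gene was called lower without that library (log2 fold change -1.47 ± 0.33, adjusted p = 2.0e-04) and with the replicate block (log2 fold change -1.21, adjusted p = 2.5e-04), and also without healthy library M125 (-1.02), and not with all libraries (log2 fold change -0.92 ± 0.35 (SE), adjusted p = 0.021). *Kcnj8*, a potassium channel subunit of pericytes, fell either way (log2 fold change -2.82 ± 0.48 (SE), adjusted p = 4.2e-06), as did *Pdgfrb* (-1.85), *Myl9* (-1.84) and *Notch3* (-1.11), and *Cnn1* rose only with library M126 (2.04). *Des*, desmin, made by both pericytes and muscle, was 1258 CPM in mouse M126 and 5.04 to 9.33 CPM in the other injured nerves, below the healthy 10.5 to 24.2 CPM (median 15.9). It was called higher with library M126 (log2 fold change 3.92 ± 0.86 (SE), adjusted p = 1.6e-04), lower without it (log2 fold change -1.10 ± 0.33, adjusted p = 0.0042) and not called with the replicate block (log2 fold change -0.37, adjusted p = 0.68).

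In the endoneurial fibroblast list, 2 of 13 tested members rose (15.4%, against 20.9% of all genes tested) and 2 fell (15.4%, against 13.4%). The median was -0.14, and without library M126 2 rose and 3 fell with a median of -0.23. *Pdgfra*, the receptor that marks nerve fibroblasts, ranged from 63.0 to 140.3 CPM (median 82.7) in healthy nerves and was 57.9, 43.3, 12.5, 9.49 and 44.6 CPM in injured nerves. It fell (log2 fold change -1.37 ± 0.38 (SE), adjusted p = 0.0022), most in mouse M128 and mouse M135. *Dcn*, decorin, was also lowest in those mice and was called lower only without library M126 (log2 fold change -1.12 ± 0.31, adjusted p = 0.0019) or with the replicate block (log2 fold change -1.02, adjusted p = 0.0044). *Wif1*, a Wnt inhibitor of endoneurial fibroblasts, rose from 0 to 0.641 CPM (median 0.106) to 9.42, 8.31, 11.9, 11.8 and 6.29 CPM (log2 fold change 5.57 ± 0.46 (SE), adjusted p = 1.8e-12), and *Gsn*, gelsolin, fell (log2 fold change -1.56 ± 0.28 (SE), adjusted p = 1.2e-05). *Pi16* was the other member to rise (1.56). In the perineurial list, 3 of 10 tested members rose and 1 fell, and the replicate block called 5 higher. *Crabp2*, a retinoic acid-binding protein, rose with and without library M126 (2.46 and 2.04), whereas *Cldn1* and *Moxd1* were not called without it, and *Itgb4* was the member that fell. The sheath had been removed by dissection, and the level of this list varied widely among healthy nerves (mean log2 CPM 1.84 to 5.29) and among injured nerves (4.64 to 6.36). Of 12 tested adipocyte genes, *Lipe*, *Fabp4* and *Adrb3* rose (median 1.88), while without library M126 *Lipe* rose and *Plin4* and *Pnpla2* fell (median -1.21), counts that the replicate block gave as well. Leaving out healthy library M125 or M138 gave 1 and 5 higher members. *Adipoq*, adiponectin, was 0.0273 to 23.7 CPM (median 0.617) in healthy and 0.0576, 109, 0.147, 0 and 10.2 CPM in injured nerves, a range too wide for a call (log2 fold change 1.85 ± 1.49 (SE), adjusted p = 0.28). None of the 5 tested erythrocyte genes was called (adjusted p under 0.05 alone, 0 as well), with *Hba-a1*, a globin, at 1.70 to 5.31 CPM (median 3.54) in healthy and 2.88, 13.1, 1.76, 1.36 and 5.203 CPM in injured nerves.

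Most genes of the neuron list were lower after the crush, and which cells made these transcripts was not tested. In the neuron list, 1 of 12 tested members rose and 10 fell (median -2.48). *Nefl*, neurofilament light, ranged from 8.55 to 12.4 CPM (median 9.39) in healthy nerves and was 2.25, 0.396, 0.881, 0.758 and 1.70 CPM in injured nerves. *Nefh*, neurofilament heavy, ranged from 14.2 to 20.5 CPM (median 16.9) in healthy nerves and was 0.979, 0.480, 0.624, 0.120 and 0.257 CPM in injured nerves. Both were lower in every injured nerve (log2 fold changes -3.03 ± 0.26 and -5.09 ± 0.31 (SE), adjusted p = 6.4e-12 and 1.2e-15, in that order). *Stmn2*, a growth cone protein, overlapped between the groups and was not called (log2 fold change 0.28 ± 0.14 (SE), adjusted p = 0.08). *Tubb3*, beta III tubulin, was the exception. It ranged from 10.3 to 15.9 CPM (median 12.8) in healthy nerves and was 55.4, 57.6, 50.9, 67.1 and 60.4 CPM in injured nerves, all injured nerves lying in a narrow band above the healthy ones (log2 fold change 2.17 ± 0.21 (SE), adjusted p = 9.5e-11).

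Among all abundant protein-coding genes whose call held with and without library M126 and whose groups did not overlap, the largest rises were found in *Atp6v0d2*, *Fgd3*, *Clca3a2*, *Postn*, *Lrg1*, *Aqp1*, *Sema4f* and *Aplnr*, with log2 fold changes of 6.35, 5.54, 5.47, 5.36, 5.11, 5.06, 4.99 and 4.67. *Atp6v0d2*, a V-ATPase subunit of macrophages and osteoclasts, ranged from 0.677 to 1.99 CPM (median 1.35) in healthy nerves and was 102, 46.3, 174.8, 110.2 and 112 CPM in injured nerves. *Postn*, the matricellular protein periostin, ranged from 8.25 to 22.9 CPM (median 14.8) in healthy nerves and was 583, 617, 423, 822 and 753 CPM in injured nerves. *Sema4f*, a transmembrane semaphorin, ranged from 1.70 to 3.33 CPM (median 2.24) in healthy nerves and was 63.6, 54.5, 72.8, 77.8 and 93.8 CPM in injured nerves. *Atp6v0d2* had the same order of mice at its ends as the macrophage genes, with mouse M128 highest and mouse M126 lowest, whereas *Postn* and *Sema4f* differed among injured nerves by less than their distance from the healthy nerves (log2 fold changes 6.35 ± 0.51, 5.36 ± 0.36 and 4.99 ± 0.23 (SE), adjusted p = 9.5e-13, 1.4e-14 and 1.3e-18, in that order). *Aqp1*, a water channel of endothelium and Schwann cells, ranged from 3.66 to 67.6 CPM (median 16.1) in healthy nerves and was 187, 624, 960.4, 1788 and 354 CPM in injured nerves. Like *Lrg1*, a secreted glycoprotein of endothelium, and *Aplnr*, the endothelial apelin receptor, it was lowest in mouse M125 and highest in mouse M135.

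The largest falls by the same rule were in *Plk5*, *Serpind1*, *Pcsk6*, *Lctl*, *Them5*, *Adcy8*, *Fam81a* and *Sptb*, with log2 fold changes of -7.19, -5.81, -5.31, -5.03, -4.88, -4.86, -4.81 and -4.72. *Plk5*, a divergent polo-like kinase, ranged from 222 to 406 CPM (median 285) in healthy nerves and was 4.21, 1.44, 1.84, 0.997 and 1.45 CPM in injured nerves. *Serpind1*, which encodes heparin cofactor II, ranged from 193 to 231 CPM (median 209) in healthy nerves and was 6.42, 4.30, 3.67, 1.16 and 2.92 CPM in injured nerves. *Pcsk6*, a proprotein convertase, ranged from 121 to 174 CPM (median 147.3) in healthy nerves and was 3.80, 7.23, 2.497, 1.12 and 3.63 CPM in injured nerves. All 3 were low in every injured nerve, lowest in mouse M135 (log2 fold changes -7.19 ± 0.38, -5.81 ± 0.44 and -5.31 ± 0.39 (SE), adjusted p = 4.6e-17, 2.0e-13 and 9.4e-14, in that order). *Sptb*, a beta spectrin, was 683 to 900.0 CPM (median 763) in healthy and 21.8, 82.2, 14.8, 11.8 and 16.3 CPM in injured nerves, mouse M126 being the highest of these. Of the long non-coding RNAs, *H19* and *Gm49539* rose and *A330015K06Rik* and *Tspan32os* fell (4.39, 4.39, -6.24 and -4.19). *H19*, an imprinted transcript abundant in muscle precursors, ranged from 14.7 to 24.7 CPM (median 20.2) in healthy nerves and was 125.7, 1623, 157, 148 and 81.2 CPM in injured nerves, so that mouse M126 was an order of magnitude above the other injured nerves, which were themselves all above the healthy range. The libraries carry no strand, so reads of *Tspan32os* and of the gene it opposes cannot be told apart.

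Muscle fibre genes depended on library M126. Of the skeletal muscle list, 23 of 24 tested members rose and 0 fell with all libraries (median 8.52) and 7 rose with the replicate block. DESeq2, which sets aside genes with an outlying library, gave no adjusted p for 22 of the 24. Without library M126, *Cox6a2*, *Ryr1*, *Tcap* and *Tnni2* rose and *Casq1*, *Des*, *Actn3* and *Pvalb* fell (median -0.17). *Acta1*, skeletal alpha actin, ranged from 0.0820 to 7.44 CPM (median 3.23) in healthy nerves and was 0.144, 10398, 0, 4.43 and 4.50 CPM in injured nerves. *Ckm*, muscle creatine kinase, ranged from 0.164 to 2.95 CPM (median 1.38) in healthy nerves and was 0.0288, 3834, 0, 1.67 and 1.54 CPM in injured nerves. *Myh4*, a fast myosin heavy chain, ranged from 0 to 6.80 CPM (median 3.06) in healthy nerves and was 0, 9427, 0, 4.19 and 3.82 CPM in injured nerves. In all 3 genes mouse M126 alone left the healthy range upward, and the other injured nerves overlapped it, lay below it or were at 0. They were called with library M126 (log2 fold changes 9.40 ± 1.74, 9.16 ± 1.53 and 9.35 ± 1.76 (SE), adjusted p = 1.8e-05, 3.4e-06 and 2.6e-05, in that order) and neither without it (log2 fold changes -0.44, -0.72 and -0.53) nor with the replicate block (adjusted p = 0.14, 0.25 and 0.27). *Myl1*, a myosin light chain, showed the same split (log2 fold change 9.56 with and -0.40 without the library). In the opposite set, genes called only once library M126 was left out, the largest shifts were in *Ces1f*, *A930016O22Rik*, *Tuba8* and *Pon1*. *Tuba8*, an alpha tubulin, was 5.26 to 10.3 CPM (median 7.10) in healthy and 0.317, 25.5, 0.331, 0.159 and 0.321 CPM in injured nerves. The value of mouse M126 was above the healthy range and the other 4 were far below it (log2 fold change -0.44 ± 0.68 (SE), adjusted p = 0.58, and log2 fold change -4.64 ± 0.38, adjusted p = 1.7e-12 without library M126).

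**Figure D4:**
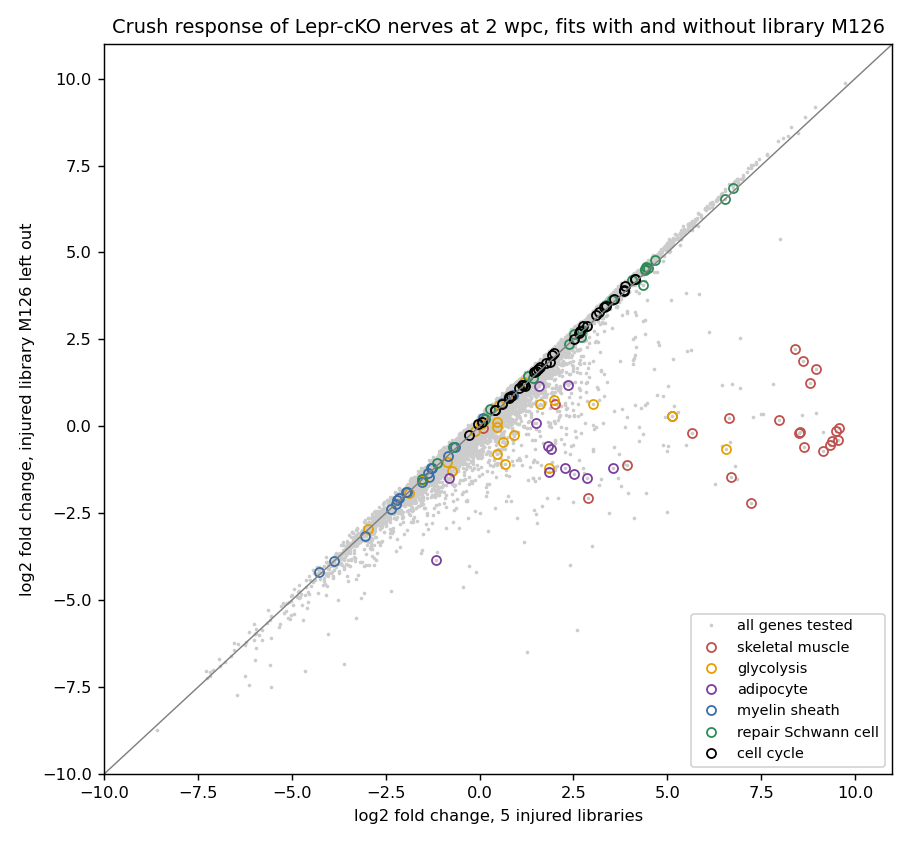
Log2 fold change (injured minus healthy) of each tested gene with all 5 injured libraries (x axis) and with library M126 left out (y axis), with 6 gene lists in colour and the line of equality. Myelin, repair and cell cycle genes lie along the line, whereas skeletal muscle genes lie far to its right.

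The same crush comparison in *Lepr*-ctrl nerves at 2 wpc, which shared no library with that of *Lepr*-cKO nerves, called 3652 genes higher (19.8%) and 2637 lower (14.3%). Of the called genes, 5336 were common to both genotypes, 84.3% of the *Lepr*-cKO and 84.8% of the *Lepr*-ctrl calls, and 5328 of them had the same sign. Across the 18442 genes, the fold changes correlated with r = 0.91, a description over genes, which are not independent. A test of the genotype difference in the response called 0 genes in edgeR (797 at an unadjusted p under 0.05), and DESeq2 called 2. Leaving out injured library M125, M128, M135 or M138 gave 35, 37, 29 and 31 genes, and leaving out library M126 gave 0. Side by side, the log2 fold changes in *Lepr*-cKO and *Lepr*-ctrl nerves were -2.24 and -2.17 for *Mbp*, 1.42 and 1.28 for *Jun*, 4.15 and 4.56 for *Cdk1*, 4.19 and 5.204 for *Trem2*, and 2.89 and 2.69 for *mt-Co1*. For *Trem2* the difference was -1.01 ± 0.44 (SE), and it was not called (adjusted p = 1). With library M126 left out, the adipocyte list had the widest gap between medians, 7.40 in *Lepr*-ctrl nerves against -1.21 in *Lepr*-cKO nerves, and no member was called for a difference. Adipocyte genes varied among single nerves. They took 0.0104% to 0.0617% of counts in injured and 0.0149% to 0.0240% in healthy *Lepr*-ctrl nerves, and 0.0183% to 0.0629% in healthy *Lepr*-cKO nerves. The part of adipose tissue in single nerves in this gap was not tested.

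In *Lepr*-cKO nerves of other mice at 4 wpc (4 injured and 5 healthy), 3094 genes were higher (16.8%) and 1990 lower (10.8%) after the crush. The median total count of injured nerves was 17552170.5 there, against 27919223 at 2 wpc, so numbers of calls at the 2 times are not like for like. The times used different mice, and time and set of mice can be separated only through the healthy nerves of each. Of the 2 wpc calls 66.8% were called at 4 wpc, and of the 4 wpc calls 83.2% had been called at 2 wpc (4230 genes, 4229 with the same sign, r = 0.85 across genes). The response at 4 wpc minus that at 2 wpc was called for 261 genes, negative in 86 (0.466%) and positive in the rest (0.949%), and without library M126 it was positive for 277 (1.51%) and negative for 108 (0.587%). Without injured library M125 it was called for 392. *Spp1* was among the positive ones, with log2 fold changes of -2.14 at 2 wpc and -0.32 at 4 wpc (difference 1.82, adjusted p = 5.5e-05). *Cntf* had a smaller negative change at 4 wpc, -2.12 against -4.51 (difference 2.39, adjusted p = 0.0013), and so had *Cldn14* (difference 2.30, adjusted p = 1.5e-04), *Nefh* (difference 2.09, adjusted p = 0.0027), *Bmp7* (difference 1.24, adjusted p = 0.016) and *Cdkn1a* (difference 1.22, adjusted p = 0.016). *Cdkn3* was lower at 4 wpc relative to 2 wpc (difference -2.30, adjusted p = 0.0061). The myelin genes *Mbp* and *Pmp22* had log2 fold changes of -1.34 and -0.66 at 4 wpc, and the differences from 2 wpc were not called (adjusted p = 0.21 and 0.085). Among the cell cycle genes, 27 were higher at 2 wpc and 19 at 4 wpc (medians 1.81 and 1.07), with 1 called for a difference in time and 3 without library M126. Macrophage genes gave 17 and 20 (medians 2.58 and 2.95).

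**Figure D5:**
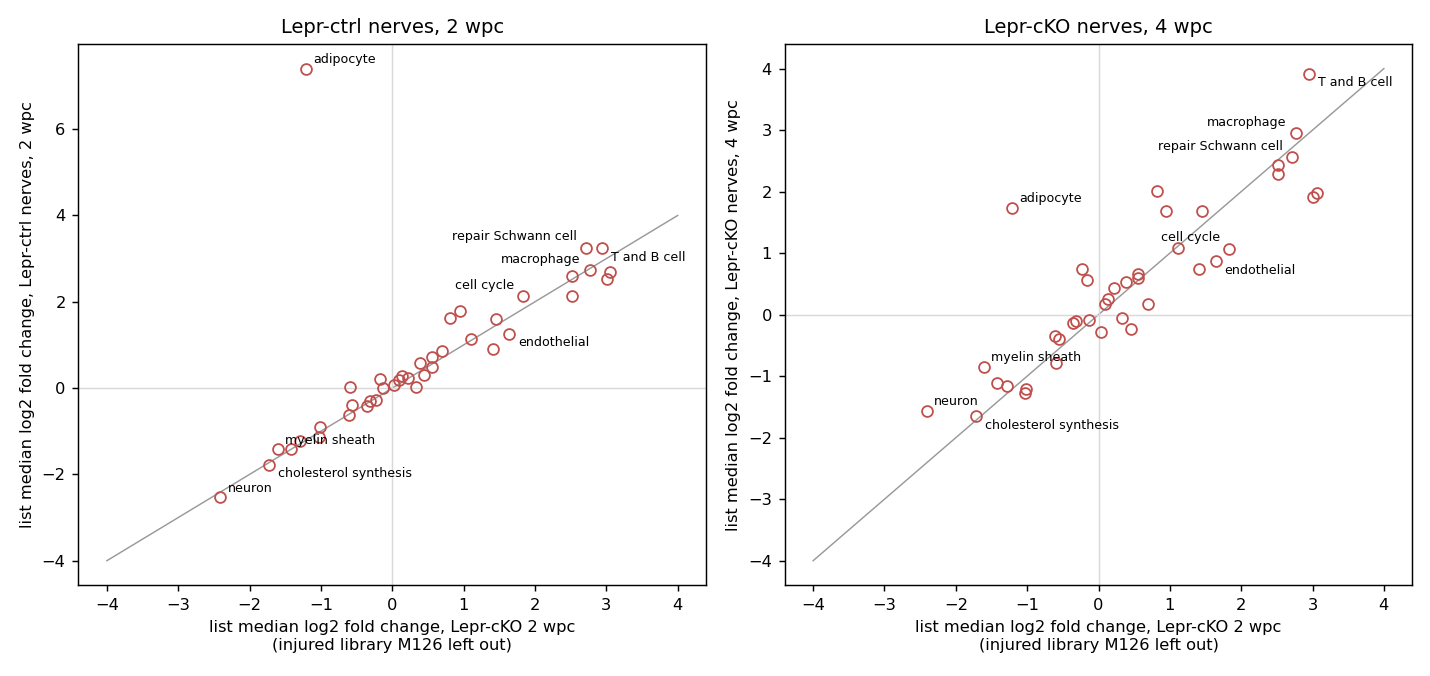
Median log2 fold change (injured minus healthy) of each of 40 gene lists in *Lepr*-cKO nerves at 2 wpc without injured library M126 (x axes), against that in *Lepr*-ctrl nerves at 2 wpc (left) and in *Lepr*-cKO nerves at 4 wpc (right), with the line of equality. The adipocyte list lies far from the line on the left (7.40), and the cell cycle list lies nearer to 0 at 4 wpc (1.07) than at 2 wpc (1.83).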

How the data were processed

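Endoneurial RNA of 39 nerves was sequenced, 11 of them the *Lepr*-cKO nerves at 2 wpc described above. The deposited values are raw read counts per gene. The authors aligned single reads of 50 bases (TruSeq RNA v2, no strand information) to GRCm38 with STAR and counted them over Ensembl release 97 genes with featureCounts. The submitters' processing notes name STAR 2.5, featureCounts 1.5.0-p1 and bcl2fastq 2.20.0.422. How reads that map to several genes were counted was not given in the sources used here. Symbols and coordinates were taken from GENCODE release M21, which covers GRCm38.

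Counts of all groups were fitted together with edgeR 4.0.16 (limma 3.58.1, R 4.3.3), with TMM scaling, genes kept by filterByExpr (minimum count 10, total 15) and a quasi-likelihood test with Benjamini-Hochberg adjustment over all genes tested. The call threshold, that of the study, was an adjusted p below 0.05 with a log2 fold change beyond 1 in either direction. Fold changes carry edgeR's default prior count and the log2 CPM behind list levels a prior count of 2, and the SE is the fold change divided by the square root of the F statistic. The test was checked on simulated data. The study used littermates as controls where possible, but how mice were spread over litters or days was not given. The p-values and SEs rest on a spread estimated over all 39 libraries. Outside the fit with the mouse as a block, both nerves of a mouse were taken as independent. CPM of low genes rest on few reads, and total counts per library set that precision.

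The members, the 40 gene lists and the tests were chosen with earlier results of these data known. The named genes were *Lepr*, marked members of each list with its highest and lowest fold change, and the 8 largest rises and 8 largest falls among protein-coding genes with a mean log2 CPM above 3 (2 each way among lncRNAs, above 1) that were called with and without library M126 and did not overlap between groups. To these were added the 4 genes whose fold change moved most among those called only with, and only without, library M126, and up to 4 genes per direction from each test of a genotype or time difference. Injured and healthy nerves of a number come from 1 mouse, so the numbers pair them. Over 5000 genes, deviations from the group means correlated within mice with r of 0.16, 0.24, 0.067, 0.37 and 0.42 (mice M125, M126, M128, M135 and M138). The fit with the mouse as a block leaves out mice with 1 nerve, here mouse M136. The alternatives were DESeq2 1.42.0, its size factors, other filters, the block, only the groups compared, mitochondrially encoded genes left out of the normalization, another prior count, leaving out single libraries, and dropping the fold threshold. The fits that leave out library M126 under DESeq2, under the block and with only the groups compared were added after seeing the data. Some genes that the naming rule covers are not reported here.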

Additional observations from a re-analysis of the deposited data

Results flagged for a closer look

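The level of a gene list in a library is the mean log2 CPM of its members. A library whose gap to its nearest neighbour took up more of the group's range than Dixon's critical value was singled out in 12 of 80 groups tested. For a single group, chance alone gives about 1 in 20. The groups share the same 11 libraries and are not independent, so the 12 cannot be set against that rate. Injured library M126 accounted for 7 of the 12. It was the highest injured nerve for autophagy (5.70), glycolysis (7.03), the citric acid cycle (7.49), fatty acid oxidation (5.87), nuclear-encoded OxPhos genes (6.82), skeletal muscle (10.26) and pericytes and smooth muscle (6.35). The part of the muscle fibre RNA of this library in the other 6 lists was not tested. Injured library M128 stood above the others for MHC class II (7.29), and injured library M125 did so for interferon-stimulated genes (4.61). Among healthy nerves, library M135 stood apart for interferon-stimulated genes (4.31), and library M138 for T and B cell genes (-0.85) and endoneurial fibroblast genes (5.80).

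The response at 4 wpc minus that at 2 wpc in *Lepr*-cKO nerves was singled out for 8 genes by the test of that difference. It was negative for *Pvalb* (-10.37), *Mylpf* (-8.07), *Actn3* (-7.67) and *Neb* (-7.55), all muscle fibre genes. Without library M126 these 4 differences were -0.92, 0.63, 0.48 and -1.15 and none was called. It was positive for *Cnmd*, which encodes chondromodulin (3.24), *Cyp4f14*, a cytochrome P450 (3.06), *A330015K06Rik*, a long non-coding RNA (2.93), and *Mchr1*, a receptor of melanin-concentrating hormone (2.91), and these 4 were called without library M126 as well.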

How the results depend on the processing

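The numbers of genes higher (3857) and lower (2473) stayed within 1.5 times under DESeq2 (4205 and 2779), its size factors, no filter, the groups compared alone, mitochondrially encoded genes left out of the normalization, and each library left out in turn (3700 to 3939 higher and 2289 to 2626 lower). They were 2248 and 1623 with at least 10 counts in every library compared, where fewer genes were tested, and 6624 and 5390 at an adjusted p alone. With the mouse as a replicate block they were 3330 and 2540, with 239 genes called for the time difference. The genotype difference called 0 genes with all libraries in edgeR (797 at an unadjusted p under 0.05), 2 with DESeq2, 2 without a filter and 0 to 37 with 1 library left out, and the time difference called 198 to 392 with 1 library left out (392 without injured library M125) and 575 with DESeq2 when library M126 was left out. The cause of these moves was not tested. Among alternatives for named genes, 3957 kept their side of the threshold, 72 of them with a change of sign in a gene not called in either fit, 45 lost a call, 40 gained one and 46 changed sign with a call in at least 1 of the fits. The median adipocyte log2 fold change, 1.88 with all libraries, was -0.80 with at least 10 counts in every library. With the replicate block it was -1.14, and *Des*, *Pvalb* and *Actn3* had -0.37, -0.86 and -0.21. With 1 library left out in turn, the skeletal muscle median was -0.17 to 8.88, the adipocyte median -1.21 to 3.01, *Acta1* -0.44 to 9.91, *Ckm* -0.72 to 9.58, *Myh4* -0.53 to 9.83, *Mylpf* -0.19 to 8.87, *Pgam2* -0.66 to 6.94, *Myh1* -0.039 to 9.99, *Des* -1.10 to 4.28, *Myl1* -0.40 to 10.04, *Ces1f* -6.49 to 3.10, *A930016O22Rik* -3.33 to 1.53, *Pvalb* -2.20 to 7.60 and *Actn3* -1.47 to 7.05, with each lowest value that without library M126. The same 2 medians and genes, in that order, were -0.20, -1.24, -0.44, -0.73, -0.53, -0.20, -0.67, -0.055, -1.11, -0.42, -5.98, -3.37, -2.21 and -1.48 with DESeq2 and library M126 left out. The same values without that of *Ces1f* were -0.19, -1.22, -0.44, -0.73, -0.53, -0.20, -0.67, -0.045, -1.11, -0.41, -3.35, -2.21 and -1.48 with only the groups compared and library M126 left out. With the block and mouse M126 left out, the adipocyte median was -2.60, and *Ckm*, *Pgam2*, *Des*, *Ces1f*, *A930016O22Rik*, *Pvalb* and *Actn3* had -0.73, -0.90, -1.17, -6.81, -3.40, -2.39 and -1.28. *Igkc*, an immunoglobulin chain, had -0.97 with all libraries and -1.83 to 4.31 with 1 left out (4.31 without healthy library M138). DESeq2 gave no adjusted p for 109 of the 6330 called genes and for 22 of 24 skeletal muscle genes, and these were not counted as lost calls. The alternatives moved the median of all genes by -0.067 to 0.041. A prior count of 0.5 changed the sign of 2 of 198 differences in mean log2 CPM. Genes under about 1 CPM rest on few reads per library.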
